A study of Oryza sativa Japonica Group with 18 samples.

Results

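Rice roots that had been without K+ for 5 d (LK) were compared with roots kept on full solution for the same 5 d (CK), with 3 Affymetrix Rice Genome Arrays a group and 6 of the 18 arrays of the series in all. The arrays were chosen by their labelled treatment and time. Seedlings of the cultivar Nipponbare were grown in hydroponic solution and were 2 weeks old when the treatment began. CK solution held 1 mM K+, and for LK roots the salt that supplied it, 0.512 mM K2SO4, was left out, so that this part of the sulfate was withdrawn together with K+. The labels name no transgene or mutation in either group, and each array measured whole roots with RNA pooled from 5 seedlings. The other 12 arrays, of 6 h and 3 d, have CK arrays of their own and share no array with the comparison at 5 d. They entered the fit only to estimate the spread of each probe set, and are used below to set the 5 d effect beside that of 3 d.

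K+ is the main inorganic cation of plant cells, where it balances charge, sets turgor and activates enzymes. Roots take it up through channels of the AKT type, which a kinase of the CIPK family activates together with a calcium-binding CBL protein, and through carriers of the HAK family. Nitrate uptake and its transport to the shoot are closely tied to K+, and roots short of K+ are known to take up Na+ through HKT carriers and to slow their growth.

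Signals are given in the linear units of the deposited table, in which the array medians over 57194 probe sets lay between 22.4 and 23.4 at 5 d. A signal near that level is largely background, so a fold against it has no fixed true size. Of these, the 44% with the highest mean signals, 25165 probe sets, entered the limma test, and a change was called at a Benjamini-Hochberg adjusted p under 0.05. On the log2 scale, arrays of the same group correlated with r from 0.9892 to 0.9958 (6 pairs) and arrays of different groups with r from 0.9718 to 0.9791 (9 pairs), over the tested probe sets, which are not independent of each other. The p-values measure the spread between pools of seedlings, 3 a group throughout. In whole roots, fewer cells of a type and less RNA per cell cannot be told apart.

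After 5 d without K+, 2643 probe sets were higher in LK roots (10.5% of those tested) and 3210 were lower (12.8%), 5853 in all (23.3%). At an unadjusted p under 0.05 there were 8785. Most of the called changes were small: 67.8% of the rises and 77.6% of the falls were under 1.5-fold, and the median called rise was 1.36-fold and the median called fall 1.31-fold. Rises of at least 2-fold were called in 242 probe sets (0.962%), and falls of that size in 191 (0.759%). Only 7 probe sets rose 5-fold or more, against 15 that fell as far. The LK and CK arrays did not overlap in 98.3% of the called probe sets, beside 42.0% of all probe sets tested. Counted by genes, with the brightest probe set standing for each, 1863 of 14751 were higher (12.6%) and 1963 lower (13.3%), and the median gene changed by -0.007 on the log2 scale. Quantile normalization gave 3172 higher and 3094 lower, and centring each array on its median 3269 and 2870, so that which direction held more probe sets depended on the scaling. Each array of 5 d was also left out alone, which gave 8.88% to 11.3% of genes higher and 9.26% to 13.2% lower. Where this moved a count of list members by over 1.5 times, the count without that array is given beside it for the lists described in most detail.

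**Figure D1:**
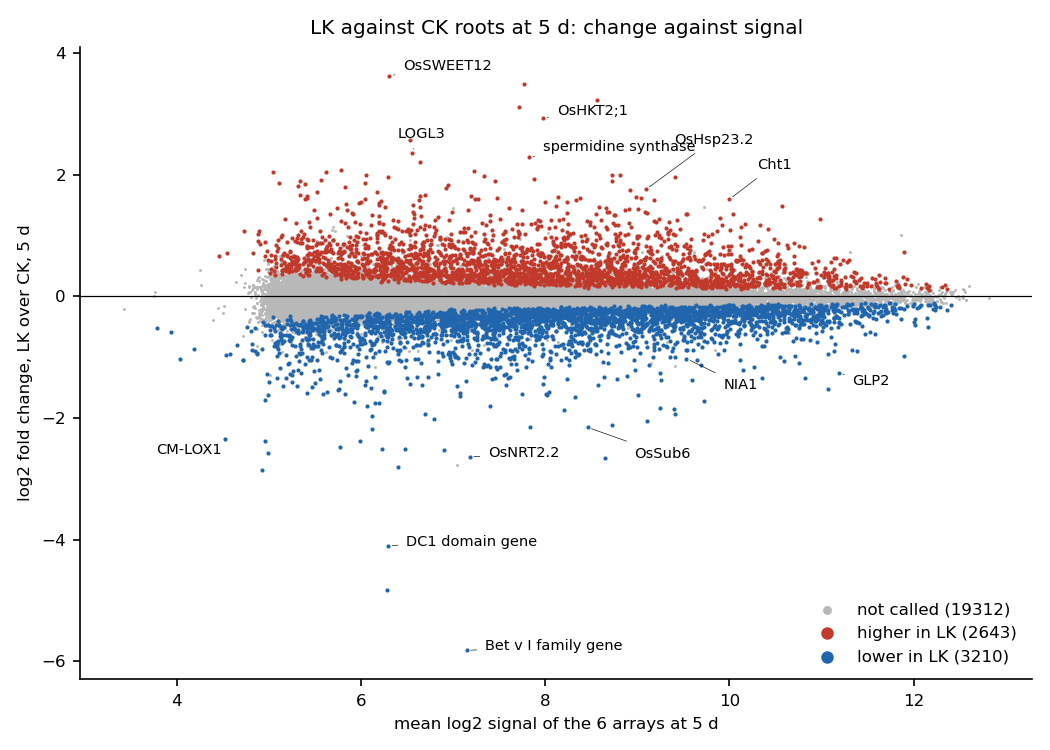
Each point is one of 25165 probe sets, with its mean log2 signal over the 6 arrays at 5 d on the x axis and the log2 fold change of LK over CK roots on the y axis. Red points (2643) were called higher and blue points (3210) lower; the widest changes were the falls of the Bet v I family gene and the DC1 domain gene and the rise of OsSWEET12, each with one group near the array median.

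The largest rise was that of OsSWEET12, which codes for a sugar transporter of the SWEET family. It read 18.6, 22.3 and 27.6 on the 3 CK arrays, about the array median, and 282, 264 and 292 on the 3 LK arrays. The ratio of means was 12.2-fold (log2 change 3.63 ± 0.18 SE, adjusted p = 3.97e-10). LOC4344351, which has no name in the tables, rose 11.3-fold from 66.5, 58.7 and 70.2 to 790.1, 675 and 740.0 (adjusted p = 5.94e-13). LOC4340075, described as a putative zinc finger protein, rose 9.38-fold, from 120.4, 149 and 103 to 1012, 1142 and 1342, and a second probe set of the gene gave 8.76-fold. OsHKT2;1, a Na+ transporter of root cells, rose 7.68-fold, with 90.5, 87.4 and 95.7 in CK and 757, 729.8 and 613 in LK roots (adjusted p = 1.13e-11). LOGL3, of the LOG family that releases active cytokinin, rose from 32.5, 54.9 and 39.5 to 222, 204 and 212 (5.02-fold, adjusted p = 3.58e-07). A spermidine synthase gene of the polyamine pathway rose from 95.8, 107 and 105 to 481, 520.2 and 505 (4.90-fold, adjusted p = 1.37e-10). For the genes with a name given here or below among the largest changes, groups without overlap were a condition of the choice, so that lack of overlap is no finding there.

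Further named genes among the 15 largest rises included stress proteins and a cell wall protein. OsEXPA31, an expansin that loosens cell walls, went from 27.1, 37.1 and 36.8, not far above the array median, to 140.4, 133 and 127 (3.96-fold). OsHsp23.2, a small heat shock protein, went from 256, 324 and 316 to 1010.1, 974 and 1040.2 (3.37-fold, adjusted p = 6.88e-09). The dehydrin gene RAB21 read 105, 78.7 and 129 in CK and 322, 235 and 405 in LK roots (3.08-fold, adjusted p = 0.00158), a change with a wide spread inside both groups. OsLOL4, a zinc finger gene related to LSD1 of Arabidopsis, rose 3.11-fold and OsHDAC3, which carries a histone deacetylase name, 3.00-fold from 20.4, 22.5 and 30.4, near the array median. The expressed gene Os04g0142400 (3.97-fold) and a tetratricopeptide repeat gene (3.04-fold) also rose with narrow spread. OsrbcS, a gene for the small subunit of Rubisco, is treated with the photosynthesis genes below, since its LK arrays differed widely from each other.

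The deepest falls went down to the background. A Bet v I family gene, from a family of small ligand-binding proteins, read 974, 1044 and 1188 in CK roots and 16.1, 20.5 and 20.4 in LK roots. Its ratio of means was 56.3-fold (log2 change -5.82 ± 0.18 SE, adjusted p = 5.94e-13), and since the LK signals lay under the array median, the ratio is set by background. The same holds for the DC1 domain gene, with 346, 337 and 293 against 22.2, 15.3 and 20.1 (16.96-fold), and for 2 probe sets without a gene in the tables, which fell 28.6-fold and 7.42-fold. OsNRT2.2, a high-affinity nitrate transporter, fell 6.10-fold, from 364, 351 and 371 to 66.5, 68.7 and 43.0 (adjusted p = 1.92e-09). Its probe set is of the type that can bind several transcripts, so the near-identical OsNRT2.1 may share the signal. CM-LOX1, a lipoxygenase of the jasmonate pathway, fell from 64.6, 44.7 and 48.6 to 10.8, 7.36 and 6.03 (6.53-fold), and 2 of its LK signals were under the floor of 10 used for the logarithm. A gene for a cysteine-rich domain protein fell 5.68-fold, from 216, 202 and 221 to 43.2, 35.0 and 34.3. The subtilisin-like protease gene OsSub6 fell 4.45-fold, from 690.4, 727 and 818 to 176, 166 and 159.9, all well above background.

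Next in size among named genes came falls between 2-fold and 3-fold. OsNSHB1 and OsNSHB2 code for nonsymbiotic hemoglobins, which bind oxygen and nitric oxide. OsNSHB2 fell from 992, 942 and 899.8 to 400.1, 375 and 406 (2.40-fold, adjusted p = 2.05e-05). OsNSHB1, on a probe set that can bind several transcripts, fell from 1941, 1679 and 1598 to 794, 693 and 761 (2.32-fold). CYP701A9 (2.71-fold) and CYP76M7 (2.52-fold), cytochrome P450 genes of labdane diterpenoid metabolism, fell as well, and so did OsSWEET2b (2.50-fold on the probe set with the larger change) and RH2 (2.31-fold).

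**Figure D2:**
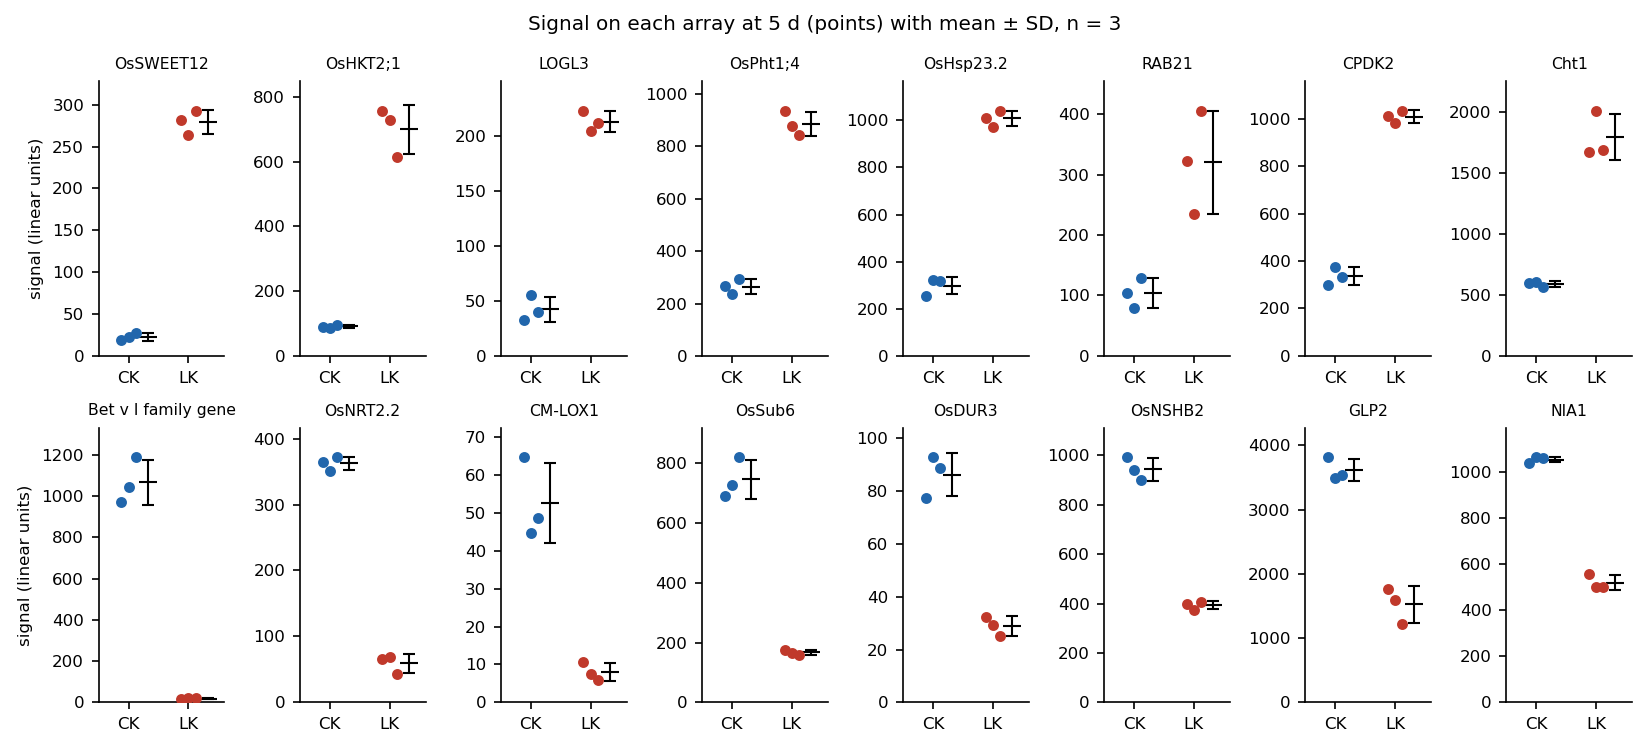
Linear signals of 16 genes on each array at 5 d, CK in blue and LK in red, with the mean and SD (n = 3) beside the points and every axis starting at 0. Genes of the upper row were higher and genes of the lower row lower in LK roots, and genes with overlapping groups could not be among the largest changes; in RAB21 the arrays spread widely within both groups, and in the Bet v I family gene and CM-LOX1 the LK signals lie at or under the array median.

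Among the K+ transport genes that could be matched to probe sets by name, few changes were large. Of 16 HAK and HKT genes tested, 3 were higher (18.8%, beside 12.6% of all genes) and 4 lower (25.0%, beside 13.3%), with a median log2 change of -0.01. OsHKT2;1 stands outside this count because the tables give its probe set no gene. OsHAK1, a high-affinity K+ carrier of the root, read 2152, 2163 and 2244.9 in CK roots and 2789, 2821 and 2618 in LK roots (1.25-fold, adjusted p = 1.16e-05). The largest rise of a HAK gene was that of OsHAK11 (187, 207 and 176 against 296, 309.9 and 320.5, 1.62-fold), followed by OsHAK7 (1.37-fold). OsHAK5, another high-affinity carrier, read 3412 ± 89.5 in CK and 3394 ± 196 in LK roots (SD; adjusted p = 0.917). OsHKT1;5, which retrieves Na+ from the xylem, fell 1.38-fold (adjusted p = 0.0485), and OsHAK16 1.31-fold, from 229, 271 and 258 to 194, 207 and 179. The call of OsHKT1;5 was lost without CK replicate 1, 2 or 3 or LK replicate 1 or 2 or without a filter (log2 change -0.53 to -0.32). OsHAK23 fell 1.21-fold (adjusted p = 0.0286), a call lost without CK replicate 1 or 2 or LK replicate 1 or 3, without a filter or with the replicate number as a block (log2 change -0.30 to -0.24), and OsHAK9 read 281 ± 17.2 in CK and 343 ± 13.8 in LK roots (SD) (adjusted p = 0.0525), passing with the filter at 30%, after quantile normalization, after centring, with a pseudocount of 32 and on the 6 arrays of 5 d alone (log2 change 0.26 to 0.31) but not in the fit reported here. The count of falls was 1 without CK replicate 2 or LK replicate 1 and 2 without CK replicate 1 or 3 or LK replicate 2 or 3. Several HAK probe sets, that of OsHAK1 among them, can bind more than one transcript.

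The 5 K+ channel genes matched by name and tested gave 1 rise and 2 falls, a count that does not cover all K+ channels of the root. SKOR and a channel gene of the AKT2 type could not be matched and are outside it, as OsHAK24 is outside the HAK count above. The study tabulates these channel genes as higher and OsHAK24 as lower in LK roots. OsAKT1, the inward channel of root K+ uptake, went from 1387, 1431 and 1480.5 to 1228, 1323 and 1190.5, a fall of 1.15-fold that passed narrowly (adjusted p = 0.0478). The call was lost without CK replicate 1, 2 or 3 or LK replicate 1 or 3, without a filter, after quantile normalization, after centring, with a floor of 50, with the replicate number as a block or without the intensity trend (log2 change -0.22 to -0.17). Of the TPK channels, found in vacuolar membranes, OsKCO1 rose from 214, 211 and 222 to 306, 307 and 327 (1.45-fold, adjusted p = 0.000574) and OsTPK3 fell from 274, 333 and 336 to 169, 189 and 184 (1.74-fold, adjusted p = 3.2e-06). OsKCO2 (log2 change 0.02) and OsTPK2 (-0.10) were not called.

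CIPK kinases, which phosphorylate channels and carriers, changed in both directions. Of 22 CIPK genes, 6 were higher (27.3%, beside 12.6% of all genes) and 4 lower (18.2%, beside 13.3%). OsCIPK23, the partner of OsAKT1, rose from 1871, 1792 and 1847 to 2889, 2903 and 2726 (1.55-fold, adjusted p = 6.82e-07), with no overlap between the groups. OsCIPK6 rose 1.82-fold, from 79.1, 79.2 and 83.0 to 146, 151 and 143, and OsCIPK14 1.46-fold. OsCIPK26 (1.28-fold) and OsCIPK10 (1.27-fold on its brightest probe set) rose by less. The falls were led by OsCIPK31, from 137, 149.6 and 126 to 70.5, 68.3 and 62.9 (2.05-fold), and OsCIPK29, from 588, 583 and 720.1 to 297, 368 and 433 (1.72-fold). OsCIPK29 and OsCIPK02 are next to each other in the RefSeq gene order (assembly ASM3414082v1), and OsCIPK02 rose 1.21-fold. Among 47 calcium sensor and CPK genes, 6 rose (12.8%) and 6 fell (12.8%), near the shares over all genes (12.6% and 13.3%). The rises numbered 1 without CK replicate 1 and 2 without CK replicate 2 or LK replicate 2 or 3. OsCBL5 rose 1.40-fold (131, 117 and 134 against 188, 172 and 176) while OsCML5 fell 1.77-fold, OsCCaMK, the kinase of root symbiosis signalling and the one call among 5 genes of that function, 1.71-fold (404, 416 and 467 against 267, 265 and 222) and OsCDPK9 1.63-fold.

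Of 9 WNK kinase genes, 3 rose (33.3%, beside 12.6% of all genes) and 1 fell (11.1%, beside 13.3%). OsWNK7 rose 2.23-fold, from 312, 328 and 346 to 815, 749 and 634 (adjusted p = 3.04e-07). OsWNK5 rose 2.03-fold and OsWNK8 1.65-fold, and OsWNK9 fell from 2012, 2139 and 2110.5 to 1533, 1558 and 1504 (1.36-fold). Among 11 other ion carriers, 2 rose (18.2%) and 1 (9.09%), the Ca2+/H+ exchanger gene OsCAX3, fell (1.20-fold).

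Most of the nitrogen genes called were lower in LK roots. Of 21 genes tested, 12 were lower (57.1%) and 1 higher, with a median log2 change of -0.27. Over all genes tested, 13.3% were lower and the median was -0.007. The falls covered uptake and assimilation alike. For nitrate uptake, OsNRT2.3 fell 1.77-fold, from 48.5, 66.7 and 65.3 to 32.1, 35.2 and 34.5, beside the fall of OsNRT2.2 above. The urea transporter gene OsDUR3 read 77.2, 92.7 and 88.6 in CK and 32.4, 29.4 and 24.9 in LK roots (2.98-fold, adjusted p = 5.18e-05), the LK signals being near the array median. Of the ammonium transporters, OsAMT3;3 fell from 61.7, 65.2 and 59.9 to 22.8, 26.2 and 21.7 (2.64-fold), with the LK signals at the array median. OsAMT1;2 fell from 1864, 1907 and 1964 to 1468, 1316 and 1080.0 (1.48-fold) and OsAMT2;1 fell 1.32-fold.

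In nitrogen assimilation, the nitrate reductase gene NIA1 fell from 1042, 1065 and 1061 to 560.2, 502 and 501 (2.03-fold, adjusted p = 9.77e-09). The glutamine synthetase genes OsGLN2 (945, 816 and 885 against 618, 650.4 and 614, 1.41-fold) and OsGLN1;1 (1.32-fold) fell, and so did the glutamate synthase gene Fd-GOGAT (1.20-fold). OsGDH2, a glutamate dehydrogenase that links glutamate to carbon metabolism, was the list's only called rise, from 786, 755 and 850.0 to 1177, 1349.9 and 1373 (1.63-fold, adjusted p = 6.73e-06). At 3 d, 9 genes of this list were lower and 2 higher, against 6.35% and 10.2% of all genes at that time. The effect differed between 3 d and 5 d in 3 of them by the interaction test, NIA1, OsNRT2.2 and OsGDH2.

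**Figure D3:**
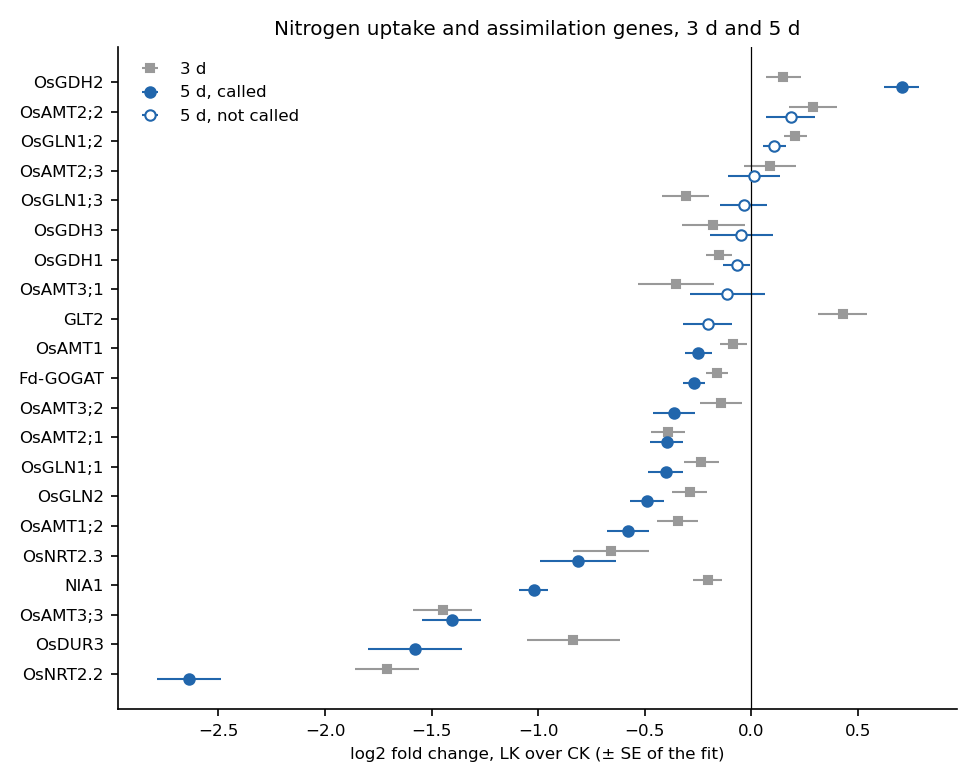
Log2 fold change of LK over CK for the 21 nitrogen genes tested, at 3 d (grey squares) and 5 d (blue circles, filled where called at 5 d), with the standard error of the fit. OsNRT2.2 has the largest fall at both times, and OsGDH2 is the single filled circle to the right of 0.

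Of 15 phosphate genes tested, 5 were higher (33.3%, beside 12.6% of all genes) and 2 lower. The transporter gene OsPht1;4 rose from 265, 236 and 293 to 936, 879 and 844 (3.35-fold, adjusted p = 1.98e-08), on a probe set that can bind several transcripts. OsPht1;8, another phosphate transporter, rose 1.31-fold and OsPHR3, a relative of the phosphate response regulator PHR, 1.62-fold. OsSPX4, which holds such regulators back when phosphate is ample, rose 1.29-fold. The 7 sulfur genes tested were OsAPRL and CSase genes only, with no sulfate transporter, so they do not describe sulfate uptake. OsAPRL1, of a family related to adenylyl-sulfate reductase, rose from 1137, 1252 and 1221 to 2099.5, 2156 and 2036 (1.74-fold). In all, 2 of the 7 were higher and none was called lower by limma (0 at an unadjusted p under 0.05). OsAPRL3 had the widest ratio, with means of 1900 in CK and 678 in LK roots (2.80-fold lower, adjusted p = 0.167), and was not called. The summed signal of the list was 7949, 8217 and 11894 on the CK arrays. The rises numbered 1 without LK replicate 2, and the falls 1 without CK replicate 2.

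Of 18 genes of iron acquisition, 6 were higher (33.3%, beside 12.6% of all genes) and 3 lower (16.7%, beside 13.3%). These counts rested on single arrays: the rises numbered 2 without CK replicate 1 or LK replicate 1 and 3 without CK replicate 2 or 3 or LK replicate 2, and the falls 1 without CK replicate 2 or LK replicate 3. Without a filter there were 2 rises and 1 fall. OsNAS2, which makes nicotianamine, rose 1.76-fold (481, 569.8 and 476 against 1201, 842 and 646, adjusted p = 0.0256). OsNAAT1, the next enzyme on the way to the iron chelator deoxymugineic acid, rose 1.73-fold, with 279, 278 and 289 against 672, 453 and 344 (adjusted p = 0.0225). In both, replicate 1 was the highest of the LK arrays. The call of OsNAS2 was lost without CK replicate 1 or 3 or LK replicate 1 or 2, without a filter or with a floor of 50 (log2 change 0.54 to 0.80), and that of OsNAAT1 without CK replicate 1 or 2 or LK replicate 1 or without a filter (log2 change 0.48 to 0.74). OsYSL13 rose 1.55-fold, while its neighbour in the gene order, OsYSL12, fell 1.82-fold (927, 777 and 743 against 493, 445 and 407). OsbHLH063, a basic helix-loop-helix factor, rose 1.97-fold (41.4, 38.5 and 52.2 against 83.8, 90.1 and 86.5, adjusted p = 1.12e-05). OsIRT1 was among the falls, with means of 99.3 in CK and 73.5 in LK roots (1.35-fold, adjusted p = 0.0289). Among 24 genes of vacuolar and divalent metal transport, 6 rose (25.0%, beside 12.6% of all genes) and 8 fell (33.3%, beside 13.3%). The rises numbered 3 without CK replicate 3 or LK replicate 1 or 2, and the falls 5 without CK replicate 1. The vacuolar iron transporter genes OsVIT1.2 (2464, 2602 and 2623 against 1575, 1575 and 1448, 1.67-fold) and OsVIT1 (1.48-fold) were both lower. OsNramp1, of a family of divalent metal carriers, rose 1.65-fold, from 30.7, 43.6 and 37.1 to 70.7, 59.2 and 53.4.

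The list of 20 aquaporin genes also holds Lsi2, which is not an aquaporin gene. Of the 20, 5 rose and 3 fell, Lsi2 among the falls, and none of them changed by 2-fold. The rises numbered 3 without CK replicate 1 or 2 or LK replicate 1, 2 or 3. OsPIP2;4, a plasma membrane water channel, rose 1.16-fold. OsTIP4;1, a tonoplast aquaporin, fell 1.63-fold, from 1109, 1202 and 1132 to 755, 682 and 676. Of 11 ABC transporters, 5 fell (45.5%, beside 13.3% of all genes) and none was called higher by limma (0 at an unadjusted p under 0.05). The falls were led by mdr17 (1.66-fold, adjusted p = 3.65e-06).

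Sugar transporters were called in both directions, and the genes called in 2 lists of carbon metabolism were more often higher than lower. Beside OsSWEET12, OsSWEET14 (1.89-fold) and OsSWEET4 (1.45-fold) rose, whereas OsSWEET2a (1.48-fold) and OsSWEET2b (2.01-fold on its brightest probe set) fell. Of 13 sugar transporters, 3 rose (23.1%, beside 12.6% of all genes) and 4 fell (30.8%, beside 13.3%). The falls numbered 2 without LK replicate 3. Of 26 genes of sucrose, trehalose and starch, 9 rose (34.6%, beside 12.6% of all genes), 1 fell and 16 were not called. The rises included the cell wall invertases OsCIN2 (1.499-fold) and OsCIN7 (1.52-fold), the sucrose synthase OsSUS4 (1.35-fold), the amylase AMY1.5 (1.76-fold) and the trehalose phosphate phosphatases OsTPP9 (1.55-fold) and OsTPP4 (1.33-fold). OsTPP2 was the one that fell (1.29-fold).

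Both genes named for pyruvate orthophosphate dikinase, which interconverts pyruvate and phosphoenolpyruvate, rose. CPDK2 went from 298, 376 and 333 to 1012, 980.4 and 1033 (3.00-fold, adjusted p = 3.96e-06) and OsPPDKB from 987, 929 and 886 to 2047, 1971 and 2038 (2.16-fold, adjusted p = 2.82e-08). The probe set of CPDK2 can bind several transcripts. They belong to a list of 20 genes of glycolysis, fermentation and organic acids, 7 of which rose (35.0%), 2 fell and 11 were not called, and the rises numbered 4 without LK replicate 2. Pyruvate decarboxylase PDC (1.25-fold) and alcohol dehydrogenase Adh2 (1.23-fold) rose by little. The oxidative pentose phosphate gene OsG6PGH2, for a 6-phosphogluconate dehydrogenase, fell from 3542, 3496 and 3486 to 2254, 2369 and 2243 (1.53-fold, adjusted p = 9.66e-09).

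Genes of the abscisic acid (ABA) response and of heat shock were called higher more often than lower. Of 22 ABA, dehydrin and LEA genes, 8 rose (36.4%, beside 12.6% of all genes) and none was called lower by limma (1 at an unadjusted p under 0.05). RAB21 and RAB16B, dehydrin genes that are direct neighbours in the gene order, rose 3.08-fold and 2.76-fold, and the next genes of the cluster, RAB16C and RAB16D, are named here after their values were seen. RAB16C had means of 80.1 in CK and 222 in LK roots (adjusted p = 0.063) and RAB16D of 109.7 and 131 (adjusted p = 0.665), and neither passed the test. RAB16B read 43.8, 27.8 and 67.7 in CK and 127, 84.7 and 173 in LK roots. In RAB21 and RAB16B, replicate 3 was highest and replicate 2 lowest in both groups. OsABA8ox2, which breaks ABA down, rose from 36.7, 39.6 and 36.9 to 68.8, 81.4 and 66.1 (1.91-fold). OsDhn1, a dehydrin gene, rose 1.30-fold on its brightest probe set and fell on 2 dimmer ones, one of 8 genes whose probe sets were called in opposite directions among 1835 with more than 1 tested. PP2C phosphatases, of which one branch represses ABA signalling, had 10 rises (19.6%, beside 12.6% of all genes) and 4 falls (7.84%, beside 13.3%) in 51 genes. The widest rise was that of OsPP2C30 (50.2, 47.6 and 58.2 against 92.2, 109 and 123, 2.08-fold), and the rises numbered 6 without CK replicate 2.

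Of 34 heat shock genes, 14 rose (41.2%, beside 12.6% of all genes) and 2 fell (5.88%, beside 13.3%), with a median log2 change of 0.28. The falls numbered 1 without CK replicate 1 or 2 or LK replicate 3. OsHsp17.9A rose from 285, 264 and 289.7 to 665, 645 and 632 (2.32-fold, adjusted p = 7.19e-09) and OsHsp24.1 from 394, 398 and 353 to 725, 701 and 661 (1.82-fold). The heat shock factor gene OsHsf-05 rose 1.82-fold and OsHsf-25 1.43-fold. OsHsp18.8 went against them, from 1234, 1306 and 1124 to 819, 779 and 749.9 (1.56-fold lower). At 3 d, 17 of the same genes were higher and 1 lower, against 10.2% and 6.35% of all genes at that time.

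**Figure D4:**
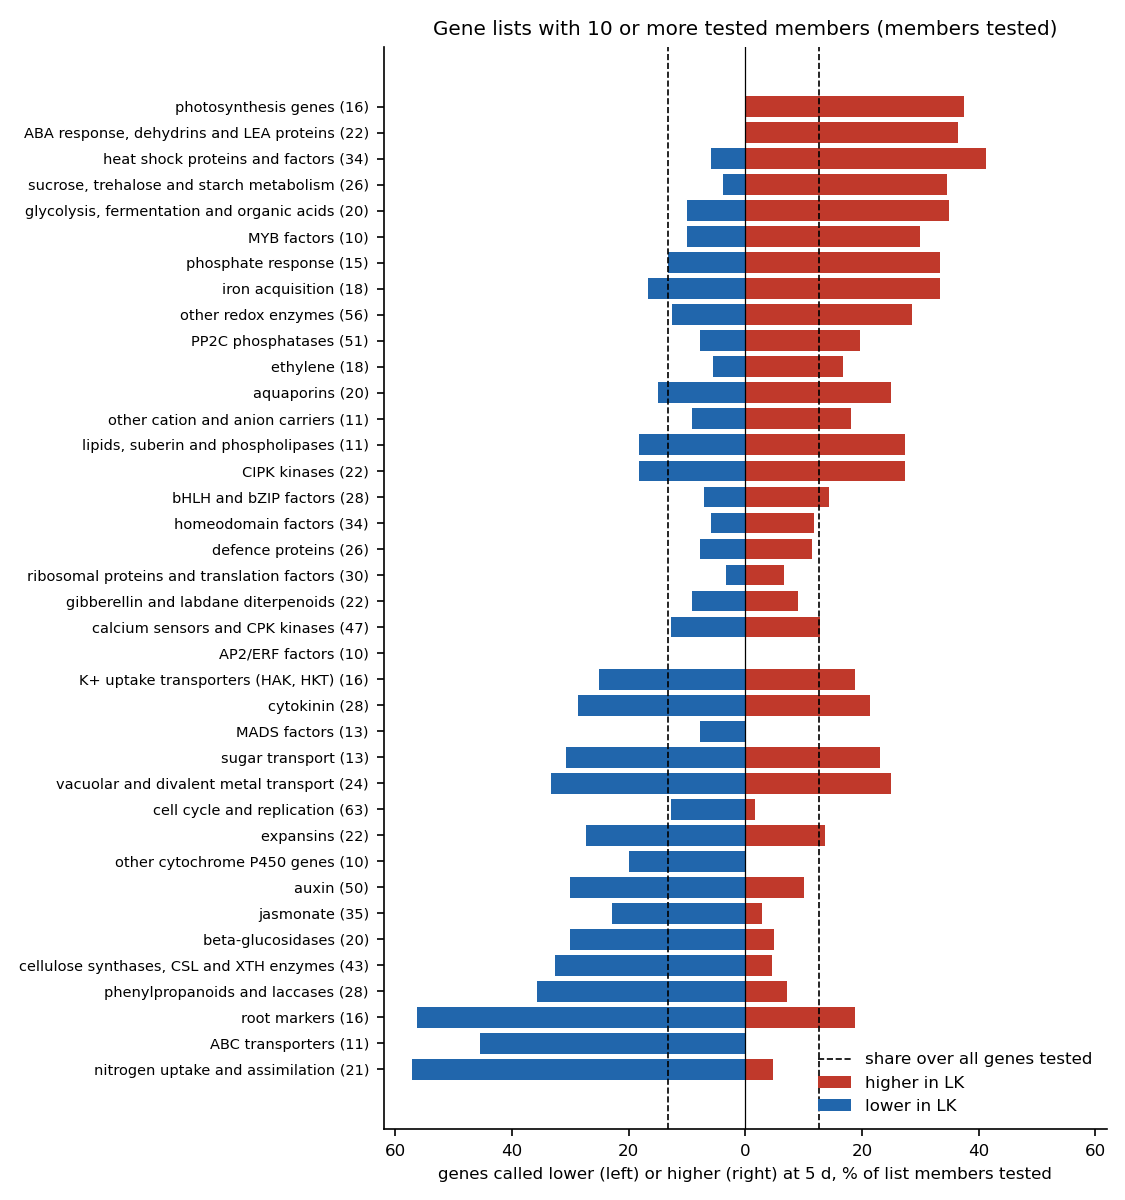
For each list with 10 or more tested genes, bars give the percentage called higher (red, right) or lower (blue, left) in LK roots at 5 d, with the number tested in brackets and dashed lines at 12.6% and 13.3%, the shares over all genes. Nitrogen genes and root markers have the longest bars to the left, and heat shock, photosynthesis and ABA genes the longest to the right, the bar of the photosynthesis genes standing for 6 genes with every array and 2 or 3 without one of 4 arrays; no list was tested as a set.

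Among hormone genes, cytokinin genes were called in both directions. Beside LOGL3, the LOG family genes LOGL6 (1.71-fold) and LOGL5 (1.69-fold) rose and LOGL1 fell (1.47-fold). OsCKX11, an oxidase that degrades cytokinin, rose from 344, 371 and 383 to 711, 663 and 641 (1.83-fold, adjusted p = 1.65e-05). Of the type-A response regulators, whose transcripts rise with cytokinin, OsRR9 fell from 1292, 1240.2 and 1193 to 786, 805 and 837 (1.53-fold, adjusted p = 6.48e-05) and OsRR4 fell 1.27-fold. Over the list, 6 of 28 genes rose (21.4%, beside 12.6% of all genes) and 8 fell (28.6%, beside 13.3%).

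Of 50 auxin genes, 15 fell (30.0%, beside 13.3% of all genes) and 5 rose. The falls numbered 8 without CK replicate 2 and 9 without LK replicate 3. Among the falls were the Aux/IAA genes IAA30 (1.22-fold) and IAA31 (1.30-fold), neighbours from a family of early auxin response genes. The rises were SAUR39 (2.42-fold, from 22.2, 25.5 and 22.0, near background), OsGH3-8, which conjugates auxin (1.66-fold), the efflux gene OsPIN5a (1.64-fold), IAA2 (1.498-fold) and OsARF1 (1.23-fold). Of 35 jasmonate genes, 8 fell (22.9%, beside 13.3% of all genes) and 1 rose (2.86%, beside 12.6%). The rises numbered 2 without LK replicate 3 and 4 without CK replicate 3. The falls included the lipoxygenase genes LOX3 (1.59-fold) and LOX5 (1559, 1550.5 and 1503 against 1094, 1174 and 1214, 1.32-fold), listed here by name only, and AOS4 (1.27-fold). The rise was that of OsOPR4, of the oxophytodienoate reductase family, from 203, 185 and 268 to 437, 439 and 441 (2.01-fold).

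The list of 18 ethylene genes also holds CBF and DREB factors, which are not ethylene genes and none of which was called. OsACS2, an ACC synthase, fell from 148, 122 and 174 to 62.1, 88.9 and 84.1 (1.89-fold) and OsMTK1 of the methionine cycle rose 1.45-fold. In all, 3 of the 18 rose (16.7%, beside 12.6% of all genes) and 1 fell (5.56%, beside 13.3%). Of 22 gibberellin and diterpenoid genes, OsKAO (2.09-fold) and OsGA20ox3 (1.39-fold), both of gibberellin synthesis, rose, against the falls of CYP701A9 and CYP76M7 given above. Each direction held 9.09% of this list, beside 12.6% higher and 13.3% lower of all genes. OsPSY3, a phytoene synthase at the entry to carotenoids, rose 2.199-fold (72.6, 69.8 and 60.0 against 136, 148 and 161), and the strigolactone receptor gene D14 1.25-fold, out of 6 genes of that list. Of 10 other cytochrome P450 genes, 2 fell (1 without CK replicate 1 or 2 or LK replicate 1, 2 or 3), among them OsCPD2 of brassinosteroid synthesis (1.31-fold).

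In 3 lists of cell wall genes, calls were more often lower than higher and more members were left uncalled than were called. The first list holds OsGLU, OsCel9, OsGT43, BC1-like and OsPMEI28 genes beside cellulose synthase, CSL and XTH genes. Of its 43 genes, 14 fell (32.6%, beside 13.3% of all genes), 2 rose and 27 were not called. The rises were those of OsCslA5 (1.21-fold) and OsPMEI28 (1.54-fold), and OsGLU2, OsGT43F and OsGT43J were among the falls. The cellulose synthases called lower were OsCesA1 (1.22-fold, 2862, 2776 and 2677 against 2165, 2410.1 and 2224), OsCesA3 (1.22-fold), OsCesA5 (1.24-fold), OsCesA6 (1.28-fold) and OsCesA8 (1.25-fold), and OsCesA4 of the secondary wall (1.28-fold). OsCesA7 (log2 change -0.199, adjusted p = 0.0571) and OsCesA9 (-0.199, adjusted p = 0.0638) were not called. BC1, a COBRA-like gene, also fell (1.44-fold). In expansins, 6 of 22 fell (27.3%, beside 13.3% of all genes), 3 rose (13.6%, beside 12.6%) and 13 were not called. Of 28 phenylpropanoid and laccase genes, 10 fell (35.7%, beside 13.3% of all genes), 2 rose (7.14%, beside 12.6%) and 16 were not called. The falls numbered 6 without CK replicate 2 or LK replicate 1, and the rises 0 without CK replicate 1 or 2 or LK replicate 1 or 2 and 1 without LK replicate 3. 4CL, which activates hydroxycinnamates for lignin, fell from 1400.5, 1392 and 1443 to 1030.4, 1047 and 994 (1.38-fold, adjusted p = 3.52e-06), and OsCAD8A, of a family of alcohol dehydrogenases of lignin synthesis, fell 1.31-fold.

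Germin-like proteins are apoplastic proteins, many of which are superoxide dismutases. Among 8 genes there were 4 falls (50.0%, beside 13.3% of all genes) and no call of a rise by limma (0 at an unadjusted p under 0.05). The furthest falls were those of GLP2 and OsGER6. GLP2 fell from 3812, 3486 and 3539.7 to 1771, 1589.7 and 1216 (2.37-fold, adjusted p = 4.57e-08) and OsGER6 from 3081, 2879 and 3009 to 1802, 1548 and 1346 (1.91-fold, adjusted p = 2.07e-07). These lie in 1 stretch of the gene order, with 3 other genes between them. OsGER1 and OsGER2 of the same stretch read log2 changes of -0.04 and 0.02 and were not called. Of 20 beta-glucosidase genes, 6 fell (30.0%, beside 13.3% of all genes), the furthest BGLU6 (1.54-fold), and 1 rose. That was BGLU26 (1.99-fold), from a CK mean of 25.1, near the array median. The tables name 3 class III peroxidases, 2 of which fell.

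Of 56 other redox enzymes, 16 rose (28.6%, beside 12.6% of all genes) and 7 fell (12.5%, near the 13.3% of all genes). The rises numbered 10 without CK replicate 1 or LK replicate 2, and the falls 4 without CK replicate 2. The glutathione transferase GSTZ5 (1.90-fold) and the thioredoxin OsTrxm5 (1.63-fold) rose, and the NADPH oxidase gene OsrbohB fell 1.38-fold. Of 26 defence genes, the chitinase Cht1 rose from 594, 609 and 565 to 1671, 2008 and 1691 (3.04-fold, adjusted p = 7.18e-07). In all, 3 of these were higher (11.5%, beside 12.6% of all genes) and 2 lower (7.69%, and 1 without CK replicate 1 or 2 or LK replicate 2 or 3). Of 3 named protease genes outside the subtilisin OsSub6, 2 rose (1 without CK replicate 1 or 2 or LK replicate 2). Of 63 genes of cell division, 8 were lower (12.7%, near the 13.3% of all genes) and 1 higher, and the falls numbered 5 without CK replicate 1 or 2 or LK replicate 1 or 2. The rise was that of KRP4, a cyclin kinase inhibitor (1.27-fold), a call lost without LK replicate 2 (log2 change 0.30). The shares of ribosomal and translation genes called were 6.67% higher and 3.33% lower of 30, beside 12.6% and 13.3% of all genes.

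Named transcription factor genes were called in small numbers and in both directions. Of 7 NAC genes, 3 rose (42.9%, beside 12.6% of all genes) and 1 fell (14.3%, beside 13.3%). The clearest rise was that of OsNAC6, a stress-responsive factor (870.5, 709.6 and 1087 against 1256, 1317 and 1402, 1.49-fold). The NAC rises numbered 1 without CK replicate 2, and the rises of homeodomain genes 1 without LK replicate 3 and 2 without CK replicate 1 or LK replicate 2. OsMYB2 rose 2.16-fold and myb17 fell 1.64-fold among 10 MYB genes, and OsWRKY51 rose 1.57-fold among 6 WRKY genes, of which 1 other fell. Of 34 homeodomain genes 4 rose (11.8%) and 2 fell (5.88%), and of 28 bHLH and bZIP genes 4 (14.3%) and 2 (7.14%), beside 12.6% and 13.3% of all genes. Of 13 MADS genes only OsMADS50 was called (1.26-fold lower). None of 10 AP2/ERF genes was called by limma (2 higher and 0 lower at an unadjusted p under 0.05), and their median log2 change was 0.17. Of 7 clock genes, OsPRR73 fell 1.26-fold. In 11 lipid genes there were 3 rises (27.3%, beside 12.6% of all genes) and 2 falls (18.2%, beside 13.3%). The polyamine list, 5 named genes that do not include the spermidine synthase gene above, had no call by limma (1 higher and 0 lower at an unadjusted p under 0.05).

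Markers of green tissue were present in the roots, and some were higher in LK roots. Of 16 photosynthesis genes, 6 were higher in LK roots (37.5%, beside 12.6% of all genes), 10 were not called and none was called lower by limma (0 at an unadjusted p under 0.05). The rises numbered 2 without CK replicate 3 or LK replicate 1 or 2 and 3 without CK replicate 1, 2 without a filter and 11 in a fit on the 6 arrays of 5 d alone. Their summed signal ran from 8824 to 10201 on the CK arrays and from 10932 to 12947 on the LK arrays. OsrbcS read 120.1, 134 and 110.1 on the CK arrays and 464, 819.9 and 257 on the LK arrays (4.23-fold, adjusted p = 0.0104). Replicate 2 of the LK roots was the highest in OsrbcS, and also in ISP (291, 305 and 303 against 543, 609 and 511, 1.85-fold) and RCABP69 (871, 1077 and 887 against 1320.5, 1490.3 and 1262, 1.44-fold). The call of OsrbcS was lost without LK replicate 2 or without a filter (log2 change 1.51 to 1.93), and that of RCABP69 without CK replicate 1 or 3 or LK replicate 1, 2 or 3, without a filter, with a floor of 50, with the replicate number as a block or without the intensity trend (log2 change 0.46 to 0.58). A second probe set of OsrbcS gave 4.39-fold, and a further one read 1.13-fold lower (adjusted p = 0.307). At 3 d OsrbcS was 1.83-fold lower in LK roots without passing the test. Root markers were measured as well, 16 of 18, and their summed signal ran from 21806 to 22222 in CK and from 19185 to 20438 in LK roots. Of these, 9 were lower (56.2%, beside 13.3% of all genes) and 3 higher (18.8%, beside 12.6%), with OsNRT2.2, OsNRT2.3, OsAMT1;2 and OsAKT1, given above, among the lower ones. The falls numbered 5 without LK replicate 3 and the rises 1 without CK replicate 1 or 2 or LK replicate 1. OsCASP1, a protein of the endodermal Casparian strip, fell from 981, 991 and 1021 to 720.0, 707 and 665 (1.43-fold). The part of tissue composition in these results was not tested.

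The effect at 5 d was set beside that at 3 d by the interaction test. Of the probe sets higher at 5 d, 49.0% were also called higher at 3 d, and of those higher at 3 d, 60.5% were higher at 5 d. For falls the shares were 33.0% and 73.1%. In 37 probe sets the calls at the 2 times had opposite directions. The effects themselves differed in 259 probe sets (1.03%), and in 1.19% of genes by their brightest probe set, with a more positive effect at 5 d in 165 and a more negative one in 94. In 131 of these the rise at 5 d was the larger, and in 79 the fall.

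NIA1 had the smallest adjusted p for a difference among genes with a name. It was 1.15-fold lower at 3 d and 2.03-fold lower at 5 d, and the log2 effects differed by -0.82 ± 0.10 SE (adjusted p = 0.000276). OsG6PGH2 (1.11-fold lower at 3 d, difference -0.46 ± 0.06), OsVIT1.2 (1.15-fold lower, -0.54 ± 0.08) and OsNRT2.2 (3.25-fold lower, -0.93 ± 0.21) also fell further by 5 d. OsACS2, which read 1.13-fold higher at 3 d without passing the test, was lower at 5 d (difference -1.09 ± 0.24). Later rises were those of OsNAS2, which was 1.90-fold lower in LK roots at 3 d (difference 1.73 ± 0.34, adjusted p = 0.016), OsCKX11, which read 1.11-fold lower at 3 d without passing the test (difference 1.03 ± 0.15, adjusted p = 0.00247), OsTLP3, of the Tubby-like family (1.25-fold lower at 3 d and 1.26-fold higher at 5 d, difference 0.66 ± 0.09), OsLOL4 (1.29-fold higher at 3 d, difference 1.28 ± 0.22) and the spermidine synthase gene (3.01-fold higher at 3 d, difference 0.70 ± 0.15). OsAPRL1 rose less at 5 d than at 3 d, 1.74-fold after 2.33-fold (difference -0.42 ± 0.07, adjusted p = 0.00726). OsITPK3, an inositol phosphate kinase gene, had been 1.91-fold lower at 3 d and read 152, 174 and 173 against 137, 155 and 164 at 5 d (adjusted p = 0.451). For OsSWEET12 (7.60-fold at 3 d), OsHKT2;1 (8.03-fold), the Bet v I family gene (39.4-fold lower) and CM-LOX1 (3.76-fold lower) no difference between the times was called, which does not show that the effects were equal.

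**Figure D5:**
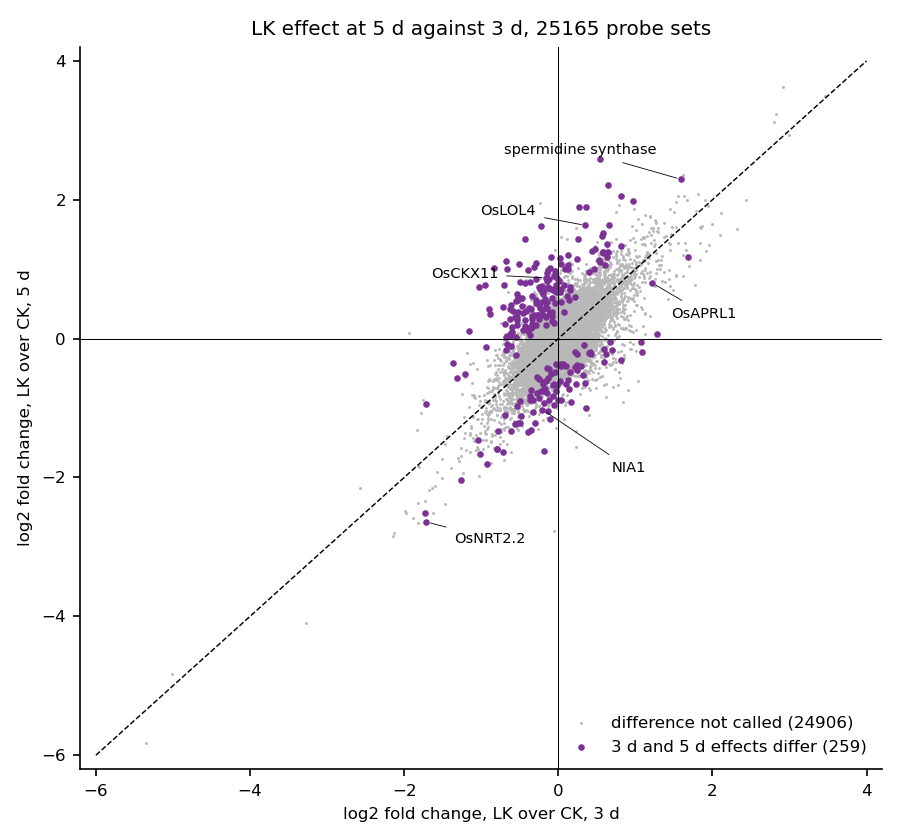
Log2 fold change of LK over CK at 3 d (x axis) and 5 d (y axis) for 25165 probe sets, with the line of equal effect dashed and the 259 probe sets whose effects differed in purple. NIA1 lies far below the line and OsCKX11 and OsLOL4 far above it, while OsAPRL1 lies below it on the side of rises at both times.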

How the data were processed

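Root RNA from 18 pools of seedlings was hybridised to Affymetrix Rice Genome Arrays, with 3 biological replicates for each treatment and time. The authors' processing notes name GCOS 1.0 and MAS5, and the study's methods name dChip for the normalization of all arrays. The deposited table gives linear signal intensities of 57194 probe sets, and whether they are MAS5 or dChip signals was not settled. No 2 arrays held identical values. Signals under 10 were raised to 10 before the log2 was taken, so folds of the dimmest genes are compressed in the test, while the folds printed are ratios of mean deposited signals. Probe sets were ranked by their mean log2 signal over the 18 arrays and the upper 44% kept, a filter that reads all groups. limma 3.58.1 in R 4.3.3 was fitted on 6 groups (lmFit and eBayes with an intensity trend; degrees of freedom were 12 from the residuals and 5.03 from the prior), two-sided, with Benjamini-Hochberg adjustment over 25165 probe sets. The fit was tested on simulated data. Every ± after a log2 change is its standard error in this fit.

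Genes were taken from GEO's platform annotation updated through RefSeq, which gave 1 gene for 22436 probe sets, several for 95 and none for 34663, with 17905 different genes. A gene was represented by its probe set with the highest mean log2 signal. OsHKT2;1 and a few descriptions (Bet v I, DC1 and cysteine-rich domain genes, for example) were named through the probe IDs in the study's primer and gene lists, with no value taken from them. Gene lists were matched by gene name, so they hold only named genes.

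The members and lists were chosen with earlier results of these data known. The genes named were drawn from the 15 largest called rises and falls of named genes whose groups do not overlap, the 5 largest of all probe sets, up to 4 called members a list and direction by smallest adjusted p (all members in lists of at most 12), the 5 named genes with the smallest p for a larger and for a smaller effect than at 3 d, and those kinases and transporters of the study's table that the gene tables pair with a probe set by name. Not every gene of that rule is named. Outside that rule, RAB16C, RAB16D, IAA30, OsCesA4, OsCesA5, OsCesA7, OsCesA8, OsCesA9, OsHsf-05, OsHsf-25, RCABP69, OsPIN5a, LOX3, OsAMT2;1, OsVIT1, BC1, OsABA8ox2, OsTPP4, AMY1.5, AOS4, OsGLN1;1, OsGLN2 and Fd-GOGAT were added after their values were seen. Alternatives tried were no filter, a filter at 30%, quantile normalization, median centring, a pseudocount of 32, a floor of 50, fits on fewer arrays, the replicate number as a block, no intensity trend and leaving out each array of 5 d.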

Additional observations from a re-analysis of the deposited data

Results flagged for a closer look

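The results below are those in which the LK effect at 5 d differed from the LK effect at 3 d by limma's interaction test (adjusted p under 0.05) among the genes named above. OsIRT1 was not included. The difference is on the log2 scale, 5 d minus 3 d, with 3 arrays a group at each time, and no explanation was tested. More negative at 5 d were OsACS2 (-1.09), OsNRT2.2 (-0.93), NIA1 (-0.82), CYP76M7 (-0.72), OsNSHB1 (-0.71) and RH2 (-0.68). Smaller differences of that sign were those of OsRR9 (-0.64), OsHAK16 (-0.63), OsVIT1.2 (-0.54), OsG6PGH2 (-0.46) and OsAPRL1 (-0.42, and -0.50 on its second probe set), the last of which rose at both times. More positive at 5 d were OsNAS2 (1.73), OsLOL4 (1.28), OsCKX11 (1.03), OsITPK3 (0.80) and the spermidine synthase gene (0.70). The same sign was found for IAA2 (0.67), OsTLP3 (0.66), OsCIPK10 (0.62), OsGDH2 (0.55) and OsCIPK14 (0.40). The direction of the ratio itself turned between the times, with a call at both, in OsNAS2, OsTLP3 and OsCIPK10.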

How the results depend on the processing

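The counts of probe sets called higher, called lower and called with at least 2-fold change stayed within 1.5 times of those given above under quantile normalization, centring, a pseudocount of 32, a floor of 50, a fit on the 6 arrays of 5 d alone and a fit without an intensity trend. With only the top 30% of probe sets tested, the counts of at least 2-fold were 154 higher and 125 lower, from fewer probe sets tested. Without any filter, 112 probe sets had an effect that differed between 3 d and 5 d, in place of 259, from 57194 tested. On leaving out each array of 5 d in turn, the count of probe sets higher ranged from 1851 to 2371 and that of probe sets lower from 2209 to 3298. The counts of at least 2-fold ranged from 231 to 295 higher and from 177 to 219 lower. Those with an effect that differed ranged from 147 (without CK replicate 1) to 380 (without CK replicate 3) for 3 d against 5 d, and from 1783 to 2816 for 6 h against 5 d, where 2557 had been called with every array. The share of higher among called probe sets was 45.2%, 50.6% after quantile normalization and 53.2% after centring, and the median of all tested probe sets moved from -0.031 to -0.012 and -0.006.

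Whether the replicate numbers pair the arrays was not settled, and the fit reported here does not pair them. At 5 d, deviations from the group means of same-numbered LK and CK arrays correlated with r from 0.0722 to 0.177, and 1 of 3 pairs was over 0.1. Every array at 5 d correlated best with its own number, which is a hint from the data only. With the replicate number as a block, 2569 probe sets were higher and 3005 lower, 246 and 193 of them by at least 2-fold, and 203 and 2280 had an effect that differed from that at 3 d and at 6 h.

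Of 168 probe sets of genes with values above, 13 crossed the threshold under at least 1 alternative (55 of 2496 values, 50 of them calls lost, 5 gained, none reversed). OsIRT1, OsAPRL3, OsCesA7 and OsCesA9 are not among the 168. They are OsHAK9, the one with calls gained, and OsHKT1;5, OsHAK23, OsAKT1, OsNAS2, OsNAAT1, OsrbcS (on both probe sets that were called), RCABP69 and KRP4, and, with a floor of 50, the dim CM-LOX1, OsNRT2.3 and SAUR39. With the block, the calls of OsAKT1 (-0.20), OsHAK23 (-0.28) and RCABP69 (0.53) were lost and no other call among them changed. Called list members whose call was lost on leaving out single arrays were mostly left unnamed, so these shares do not describe all called genes. Of 1500 counts of list members under the alternatives, 214 moved by over 1.5 times, and 15 of 750 list medians moved by 0.1 or more.

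Precision is limited by 3 arrays a group and by background: the dimmest probe sets tested had a mean signal of 32.2, near the array medians, and the deposited table gives no count or detection call. Probe sets that can bind several transcripts (OsNRT2.2, OsPht1;4, CPDK2, RAB21, OsrbcS, OsHAK1, OsAKT1, OsNSHB1) do not resolve the gene copies.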
